A study of Homo sapiens with 6 samples.

Results

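The drug efflux ABC transporters are 8 membrane pumps that were chosen by name, ABCB1, ABCG2, ABCC1, ABCC2, ABCC3, ABCC4, ABCC5 and ABCC10. The count table lists 63677 genes, of which 48 were ABC genes on the lists used here, and all 8 efflux transporters were among the 21729 genes with more than 10 counts in total that were tested. Transcripts were measured by RNA sequencing in UWB1.289, an ovarian cancer cell line that the study describes as BRCA1-deficient and whose genotype the sample labels give as WT. The 3 treated samples received Olaparib, an inhibitor of the DNA repair enzymes PARP1 and PARP2, at 4 µM for 24 h according to the labels, and the 3 controls received DMSO, its solvent. The design text of the series gives 10 µM instead, and the difference could not be resolved. All samples come from 1 cell line grown in the same mixed medium with serum.

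ABC transporters use the energy of ATP binding and hydrolysis to move substrates across a membrane. The efflux members sit mostly in the plasma membrane, and several lower the amount of anticancer drug that a cell retains. Olaparib is a known substrate of P-glycoprotein, the product of ABCB1, and raised ABCB1 is a known route to PARP inhibitor resistance in tumours and cell lines. The comparison of Olaparib with DMSO shows whether the transcripts of these pumps differed after 24 h of exposure.

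Of the 8 efflux transporters, 1 passed the test and it was lower after Olaparib. This was ABCC3, at 0.813 times its DMSO level. ABCB1 was the least abundant of the 8, at 8.95 ± 2.11 normalized counts in DMSO and 14.1 ± 4.39 in Olaparib (mean ± SD, n = 3 each), and its difference did not pass. Normalized counts are read counts divided by each library's TMM-scaled size and brought to the mean library size. Genes were called where the quasi-likelihood test of edgeR gave p under 0.05 after Benjamini-Hochberg adjustment, which ran over all genes tested. The same rule called 3.36% of all genes in either direction and 1.21% as lower. The 1 called member therefore stands beside a background share of 1.21%.

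The levels of the pumps formed a high and a low set. Levels were compared per length as RPKM, in which reads are divided by exon length and by the TMM-scaled library size. ABCC1 was the highest, at 13.7 ± 0.400 RPKM in DMSO and 13.2 ± 0.695 RPKM in Olaparib. ABCC5 followed at 8.52 ± 0.255 RPKM in DMSO and 8.14 ± 0.286 RPKM in Olaparib. ABCC3 had a level of 7.88 ± 0.436 RPKM in DMSO and 6.40 ± 0.0277 RPKM in Olaparib. ABCC1, ABCC3 and ABCC5 together held between 83.7% and 85.5% of the summed level of the 8 transcripts in each sample.

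ABCC10 had a level of 2.85 ± 0.0925 RPKM in DMSO and 2.88 ± 0.0671 RPKM in Olaparib, and ABCC4 2.12 ± 0.110 RPKM and 2.06 ± 0.101 RPKM. The largest step in the order lay below ABCC4, whose mean level over the 6 samples was 14.8 times that of ABCG2. ABCG2 reached 0.128 ± 0.0336 RPKM in DMSO and 0.154 ± 0.0183 RPKM in Olaparib. ABCC2 reached 0.106 ± 0.00719 RPKM and 0.0747 ± 0.0144 RPKM. ABCB1 was lowest at 0.0372 ± 0.00880 RPKM and 0.0587 ± 0.0183 RPKM. It made up 0.105% of the summed level of the 8 transcripts in DMSO and 0.179% in Olaparib.

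Neighbours in this order were not all separate. The 6 samples' ranges overlapped for ABCC5 and ABCC3, although ABCC5 was above ABCC3 in 6 of 6 samples. The ranges also overlapped for ABCG2 and ABCC2, and for ABCC2 and ABCB1, each pair being in order in 5 of 6 samples. The remaining neighbours did not overlap with the exon lengths used here, as the plot of level per length shows. In these bulk samples, fewer cells that express a transcript and less RNA in each cell cannot be told apart.

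**Figure D1:**
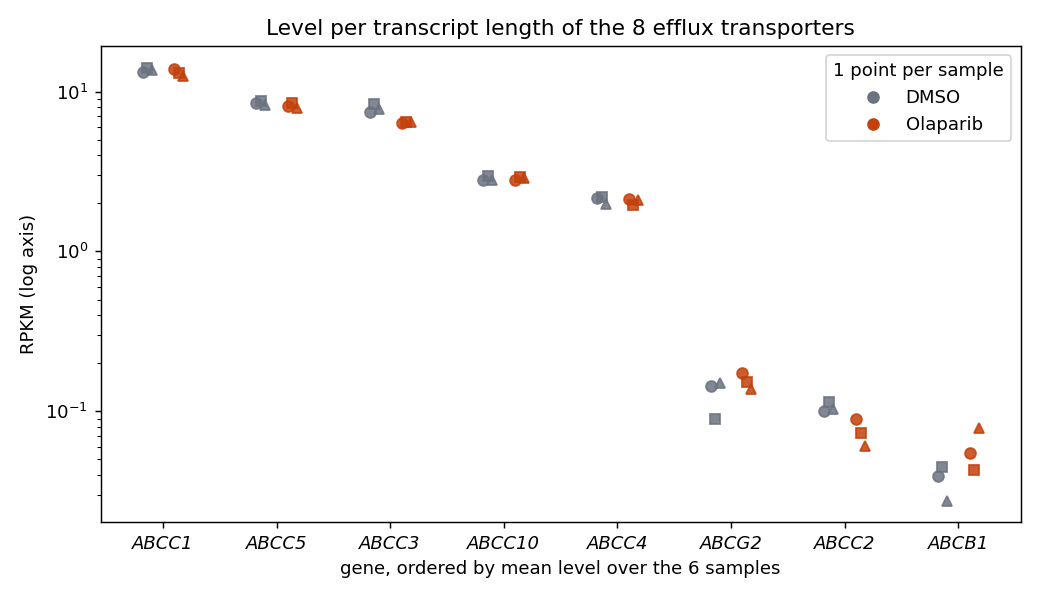
Level per length (RPKM, log axis) of the 8 efflux transporters in each of the 6 samples, with grey points for DMSO and orange points for Olaparib (circle, square and triangle for replicates 1, 2 and 3). ABCC1, ABCC5 and ABCC3 lie highest, and a 14.8-fold step in mean level separates ABCC4 from ABCG2, with ABCC2 and ABCB1 lower still on average.

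ABCB1 (ENSG00000085563) spans chr7:87503017-87713323 on the minus strand of GRCh38. It encodes P-glycoprotein, a pump of broad specificity that exports taxanes, anthracyclines, vinca alkaloids and several PARP inhibitors. Its normalized counts were 9.41, 10.8 and 6.64 in the 3 DMSO samples and 13.2, 10.3 and 18.9 in the 3 Olaparib samples. The groups overlapped, because Olaparib replicate 2 lay below DMSO replicate 2, and Olaparib replicate 3 was the highest of the 6. The log2 fold change of ABCB1 was 0.66 (SE 0.36, 95% interval -0.077 to 1.40, edgeR adjusted p = 0.412). The raw reads behind it summed to 27 in DMSO (95% Poisson interval 17.8 to 39.3) and 42 in Olaparib (30.3 to 56.8). These intervals cover counting error only and overlap. At this depth the 95% interval of the ratio of Olaparib to DMSO ran from 0.948 to 2.63, which includes no difference. Without Olaparib replicate 3 the log2 fold change was 0.39.

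ABCG2 (ENSG00000118777), at chr4:88090150-88231628 on the minus strand, encodes the breast cancer resistance protein, which exports topoisomerase inhibitors and urate. In DMSO it had 30.3, 18.6 and 31.3 normalized counts, and in Olaparib 36.4, 31.8 and 28.8. The groups overlapped, and DMSO replicate 2 was the lowest of the 6 samples. Olaparib against DMSO gave a log2 fold change of 0.27 for ABCG2 (SE 0.23, 95% interval -0.19 to 0.73, edgeR adjusted p = 0.637). Its raw reads summed to 81 in DMSO (95% Poisson interval 64.3 to 101) and 96 in Olaparib (77.8 to 117). Without DMSO replicate 2 the log2 fold change was 0.069.

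The start regions of ABCB1, ABCC2 and ABCC5 are shown because they belong to a pair of pumps with few reads and to one with many. RefSeq start windows of 300 bases on GRCh38.p14, with 250 before and 50 after a start, were matched for 6 of the 8 genes, in 12 windows. No entry was used for ABCC1 and ABCC3. Capitals mark a GC box (GGGCGG) or a CCAAT box (CCAAT), searched on both strands. For 3 of the starts the bases before the gene's first annotated exon base in GENCODE release 44 are shown. For the downstream ABCB1 start, 30 exonic bases around its second CCAAT box are shown instead. Each sequence runs 5′ to 3′ along the strand of its gene.
ABCB1 downstream start, chr7:87600946-87600975, minus strand, within the gene and exonic: gtggtgaggctgATTGGctgggcaggaaca
ABCB1 upstream start, chr7:87713324-87713545, minus strand, before the gene and within the span of RUNDC3B: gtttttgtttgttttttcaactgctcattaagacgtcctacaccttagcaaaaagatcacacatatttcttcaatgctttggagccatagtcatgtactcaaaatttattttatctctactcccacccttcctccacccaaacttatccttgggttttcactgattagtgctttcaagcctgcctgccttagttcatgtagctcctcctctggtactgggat
ABCC2 start, chr10:99782390-99782639, plus strand, before the gene: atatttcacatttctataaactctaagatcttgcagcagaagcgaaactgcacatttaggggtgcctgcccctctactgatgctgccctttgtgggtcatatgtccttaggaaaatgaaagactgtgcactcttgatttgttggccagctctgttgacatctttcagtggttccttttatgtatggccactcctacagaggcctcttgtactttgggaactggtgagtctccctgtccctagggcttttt
ABCC5 start, chr3:184017940-184018134, minus strand, before the gene: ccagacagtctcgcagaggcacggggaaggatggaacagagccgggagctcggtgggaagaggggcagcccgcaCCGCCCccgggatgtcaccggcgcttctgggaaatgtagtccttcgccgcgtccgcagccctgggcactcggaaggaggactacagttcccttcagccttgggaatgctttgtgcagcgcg

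The 2 start windows of ABCB1 differed in composition. The downstream window held 16 CpG and 55.3% G or C and 2 CCAAT boxes, and the upstream window 1 CpG and 37.7%, with neither box. The ABCC2 window also held 1 CpG, at 45.0% G or C, with neither box. The ABCC5 window held 26 CpG, 65.7% G or C and 1 GC box. The windows not shown did not sort by level. Those of ABCG2, with few reads, ranged from 3 to 35 CpG and from 40.3% to 72.3% G or C. The ABCC4 window held 47 CpG at 79.7%, and the ABCC10 windows 18 and 20 CpG at 54.3% and 60.3%. A link between composition and level was not tested. Over all 35116 RefSeq windows the medians were 14 CpG and 58.7% G or C, and 45.0% of windows held a GC box and 34.6% a CCAAT box. A match is a description of letters in the window, and the counts do not show which start was used.

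ABCC1 (ENSG00000103222), at chr16:15949138-16143257 on the plus strand, encodes MRP1, which exports glutathione conjugates, leukotrienes and several anticancer drugs. Its normalized counts were 4365, 4621 and 4447 in DMSO and 4559, 4265 and 4112 in Olaparib. The groups overlapped, with Olaparib replicate 1 above 2 of the 3 controls. For ABCC1 the log2 fold change was -0.055 (SE 0.037, 95% interval -0.13 to 0.021, edgeR adjusted p = 0.544).

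ABCC2 (ENSG00000023839), at chr10:99782640-99852594 on the plus strand, encodes MRP2, the pump that carries conjugated bilirubin into bile. In DMSO it had 29.3, 33.3 and 30.3 normalized counts, and in Olaparib 26.3, 21.5 and 17.9. The 3 Olaparib samples all lay below the 3 DMSO samples. The log2 fold change of ABCC2 was -0.50 (SE 0.23, 95% interval -0.97 to -0.032), with an unadjusted p of 0.0370 in edgeR's test. With the adjusted p at 0.287 it did not pass. Its raw reads summed to 94 in DMSO (95% Poisson interval 76.0 to 115) and 65 in Olaparib (50.2 to 82.8).

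ABCC3 (ENSG00000108846) spans chr17:50634777-50692253 on the plus strand. It encodes MRP3, a basolateral pump that exports glucuronide conjugates and bile salts and can transport etoposide and methotrexate. Its normalized counts were 2687, 3000 and 2818 in DMSO and 2294, 2312 and 2309 in Olaparib. The groups did not overlap, and the 3 Olaparib samples lay close together, at 2305 ± 9.96 against 2835 ± 157 in DMSO (SD, n = 3 each). The ratio of Olaparib to DMSO was 0.813 (95% interval 0.767 to 0.862). On the log2 scale ABCC3 fell by 0.30 (SE 0.041, edgeR adjusted p = 1.2e-05). An exact two-sided permutation test of this gene alone gave p = 0.1, the smallest that 3 against 3 samples allow. ABCC3 also passed the stricter rule of a fold over 1.2, which 0.483% of all genes passed as lower. Without DMSO replicate 2 its log2 fold change was -0.26 (adjusted p = 0.00135), and it then missed that fold but not the adjusted p.

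ABCC4 (ENSG00000125257), at chr13:95019835-95301475 on the minus strand, encodes MRP4, which exports cyclic nucleotides, prostaglandins and nucleoside analogues. Normalized counts of 702, 707 and 643 in DMSO stood beside 691, 628 and 673 in Olaparib, and the groups overlapped. For ABCC4 the log2 fold change was -0.041 (SE 0.053, 95% interval -0.15 to 0.066, edgeR adjusted p = 0.789).

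ABCC5 (ENSG00000114770), at chr3:183919934-184017939 on the minus strand, encodes MRP5, an exporter of organic anions that include cyclic nucleotides. Its normalized counts were 3635, 3728 and 3512 in DMSO and 3443, 3593 and 3352 in Olaparib. The groups overlapped only through Olaparib replicate 2. ABCC5 had a log2 fold change of -0.066 (SE 0.038, 95% interval -0.14 to 0.010, edgeR adjusted p = 0.435).

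ABCC10 (ENSG00000124574), at chr6:43427366-43450427 on the plus strand, encodes MRP7, which can export taxanes. The DMSO samples had 851, 894 and 842 normalized counts and the Olaparib samples 849, 889 and 875. Both groups covered nearly the same range. The log2 fold change of ABCC10 was 0.014 (SE 0.047, 95% interval -0.082 to 0.11, edgeR adjusted p = 0.936), and its sign turned when single samples were left out. Of its exonic bases, 0.94% are shared with DLK2 on the opposite strand, and the strand setting of the read counting is not named. The other 7 members share no exonic base with another annotated gene.

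Precision differed widely among the pumps. For ABCC1, ABCC4, ABCC5 and ABCC10, whose differences did not pass, the 95% intervals lay within -0.15 and 0.11 on the log2 scale. For ABCB1, ABCG2 and ABCC2, with at most 19, 36 and 34 raw reads in any sample, the intervals were far wider. Of the 8 members, 3 had a higher and 5 a lower point estimate after Olaparib, with a median log2 fold change of -0.048, beside a median of -0.0042 over all genes tested. The groups did not overlap for 2 of the 8, ABCC2 and ABCC3. Over all genes tested, 19.3% had groups that did not overlap.

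**Figure D2:**
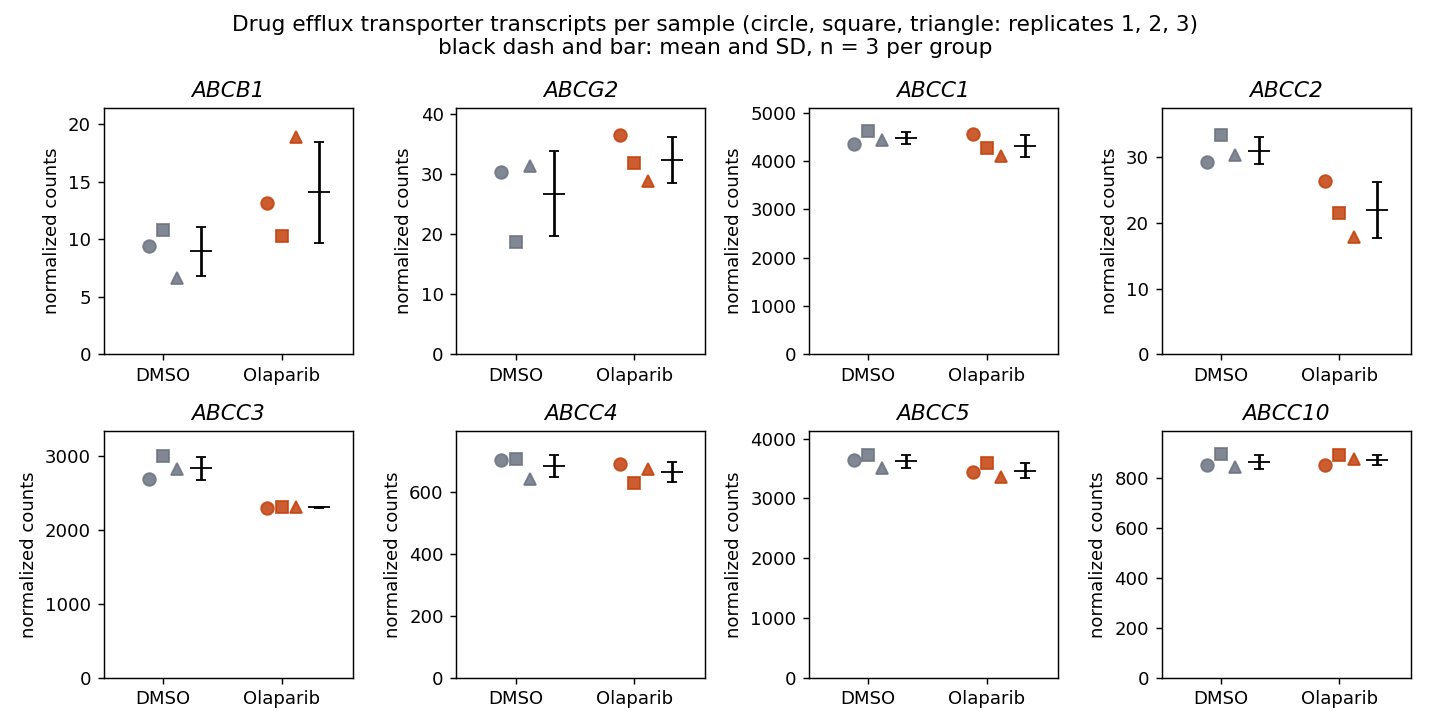
Normalized counts of the 8 efflux transporters in each sample, DMSO in grey and Olaparib in orange, each panel with its own axis from 0; black dashes and bars give mean and SD (n = 3). The 3 Olaparib samples lie below all 3 DMSO samples for ABCC3 and ABCC2, and the groups overlap for the other 6.

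Among all 48 ABC genes, ABCC3 was the only one called by edgeR's main test, which has no covariate, on all 6 samples. Of these 48 genes 39 were tested, 21 with a higher and 18 with a lower point estimate, and their median log2 fold change was 0.011. The 9 with 10 counts or fewer in total were CFTR, ABCC8, ABCC12, ABCA8, ABCA12, ABCB11, ABCD2, ABCG5 and ABCG8. Of the other 6 genes of the ABCC subfamily, 3 were tested (ABCC6, ABCC9 and ABCC11) and 0 were called. ABCC6, the subfamily member mutated in pseudoxanthoma elasticum, had 32.4 ± 2.96 normalized counts in DMSO and 31.0 ± 3.02 in Olaparib, a log2 fold change of -0.061 (edgeR adjusted p = 0.939).

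Of 30 other ABC transporters 24 were tested, with a median log2 fold change of 0.057. Without a covariate, edgeR, DESeq2 and voom called 0 of them on all 6 samples. In edgeR 1 had an unadjusted p under 0.05. This was ABCA7, a lipid transporter named after its values were seen, with a log2 fold change of -0.16 (edgeR adjusted p = 0.113). With replicate number as a covariate on all 6 samples, edgeR called ABCA7 lower (log2 fold change -0.16, adjusted p = 0.0246). With single samples left out, ABCA7 was called without Olaparib replicate 2 (log2 fold change -0.23, edgeR adjusted p = 0.0182). TAP1, a peptide transporter of antigen presentation also named after its values were seen, was called without Olaparib replicate 1 (0.20, edgeR adjusted p = 0.0338). Among those with the most reads were ABCD3, which imports fatty acids into peroxisomes, and the lipid transporter ABCA2. Their log2 fold changes were 0.078 for ABCD3 (edgeR adjusted p = 0.371) and 0.087 for ABCA2 (edgeR adjusted p = 0.350). The 4 ABC proteins that are not transporters, the translation factors ABCE1, ABCF1, ABCF2 and ABCF3, had log2 fold changes between -0.052 and 0.058, and 0 were called.

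**Figure D3:**
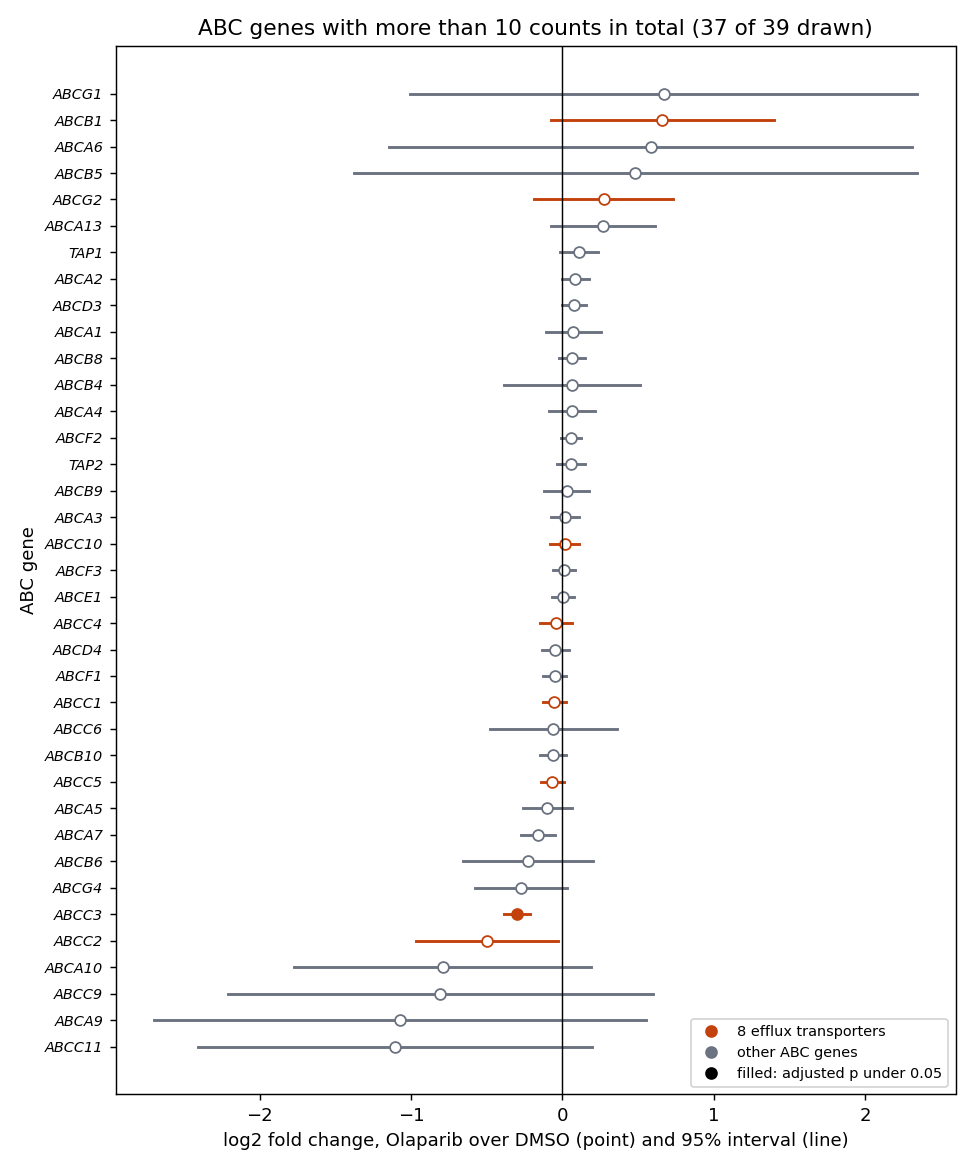
Log2 fold change (Olaparib over DMSO, point) and 95% interval (line) of 37 of the 39 tested ABC genes, with the 8 efflux transporters in orange and 29 others in grey. ABCC3 is the single filled point (adjusted p under 0.05), and the widest intervals belong to genes with few reads.

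The genes around ABCB1 on chromosome 7 were read for comparison. The list held 7 neighbours, all were tested and 0 were called, with log2 fold changes from -0.064 to 0.46. ABCB4, the adjacent phospholipid transporter and closest relative of ABCB1, had 29.2 ± 6.44 normalized counts in DMSO and 30.6 ± 3.43 in Olaparib, a log2 fold change of 0.063 (edgeR adjusted p = 0.942). RUNDC3B lies on the opposite strand and its span overlaps that of ABCB1. It was named after its values were seen, and its log2 fold change was 0.46 (edgeR adjusted p = 0.481).

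Genes that act on the same pumps, or on the same drugs, were read from further lists. Over these lists 7 genes were called, with log2 fold changes between -0.26 and 0.36. Of all 21729 genes tested, 3.36% were called, 467 as higher and 263 as lower. Of 20 known regulators of efflux transporter genes 18 were tested, 1 was called higher, and the median log2 fold change was 0.054. The called gene was ETS1, a transcription factor reported to act at the ABCB1 promoter, at 14471 ± 452 normalized counts in DMSO and 15633 ± 667 in Olaparib (log2 fold change 0.11, SE 0.031, edgeR adjusted p = 0.0338). For YBX1, a protein that binds inverted CCAAT boxes, it was 0.025 (adjusted p = 0.729). NFE2L2, the main regulator of antioxidant genes, had -0.053 (adjusted p = 0.484), and its inhibitor KEAP1 0.057 (adjusted p = 0.413). NR1I2, the xenobiotic receptor PXR, was named after its values were seen, with 17 raw reads over the 6 samples.

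Of 7 membrane anchors 1 was called, and it was higher. MSN, or moesin, which links membrane proteins such as P-glycoprotein to actin, rose from 41268 ± 667 to 44210 ± 604 normalized counts (log2 fold change 0.099, SE 0.026, edgeR adjusted p = 0.0253). For its relative EZR the log2 fold change was 0.073 (adjusted p = 0.162).

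Of 20 drug uptake transporters 17 were tested and 2 were called, both higher. SLCO3A1, an organic anion transporter, rose from 293 ± 39.9 to 379 ± 33.9 normalized counts (log2 fold change 0.36, SE 0.080, edgeR adjusted p = 0.0058). SLC29A1, the equilibrative nucleoside transporter that admits gemcitabine and cytarabine, rose from 2365 ± 79.9 to 2601 ± 40.8 (log2 fold change 0.14, SE 0.040, edgeR adjusted p = 0.0483). The median log2 fold change of the list was -0.046.

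Of 25 drug metabolism enzymes 15 were tested, and 1 was called higher and 2 lower. POR, the electron donor of microsomal cytochrome P450 enzymes, rose from 2972 ± 86.3 to 3283 ± 87.6 normalized counts (log2 fold change 0.14, SE 0.038, edgeR adjusted p = 0.0269). CYP2S1, a cytochrome P450, fell by 0.17 on the log2 scale (SE 0.048, edgeR adjusted p = 0.0417). SULT1A1, a phenol sulfotransferase, fell by 0.26 (SE 0.066, edgeR adjusted p = 0.0218), a value that is uncertain because near-identical paralogs could share its reads. Of 21 genes that supply or conjugate glutathione, the co-substrate of several ABCC pumps, 19 were tested, with a median of -0.065. Without a covariate, edgeR, DESeq2 and voom called 0 of these 19 on all 6 samples. With replicate number as a covariate, edgeR called GCLC lower (log2 fold change -0.13, adjusted p = 0.0415), a gene named after its values were seen. In edgeR 5 of them had an unadjusted p under 0.05. So had 6 of the 18 regulators tested, 5 of the 15 metabolism enzymes, 4 of the 17 uptake transporters and 2 of the 7 anchors. The share of all genes under that threshold is not given here. GSTP1, a glutathione transferase, was called higher without Olaparib replicate 1 (log2 fold change 0.090, edgeR adjusted p = 0.0413).

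These 7 calls were less stable than that of ABCC3. With single samples left out, between 1 and 4 of the 7 remained called. It was 1 without DMSO replicate 2, 4 without Olaparib replicate 1, and 2 without each of the other samples. SLC29A1 missed the threshold in every such fit except that without Olaparib replicate 1 (adjusted p up to 0.156), CYP2S1 in every one except that without DMSO replicate 1 (up to 0.250), and SULT1A1 in every one except that without Olaparib replicate 2 (up to 0.12). ETS1 missed it without DMSO replicate 2, DMSO replicate 3 or Olaparib replicate 1 (up to 0.231). MSN missed it without DMSO replicates 1 or 2 or Olaparib replicates 2 or 3 (up to 0.148), and POR without DMSO replicates 1 or 3 or Olaparib replicates 2 or 3 (up to 0.131). SLCO3A1 missed it without DMSO replicates 1 or 2 or Olaparib replicate 2 (up to 0.0857). Other tools and settings on all 6 samples also lost calls. CYP2S1 had an adjusted p of 0.0720 in DESeq2 and 0.0505 in voom, and SULT1A1 0.116 in DESeq2. Under upper quartile scaling ETS1 had 0.0552 and SLC29A1 0.0681, and under edgeR's own low-count filter SLC29A1 had 0.0565.

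**Figure D4:**
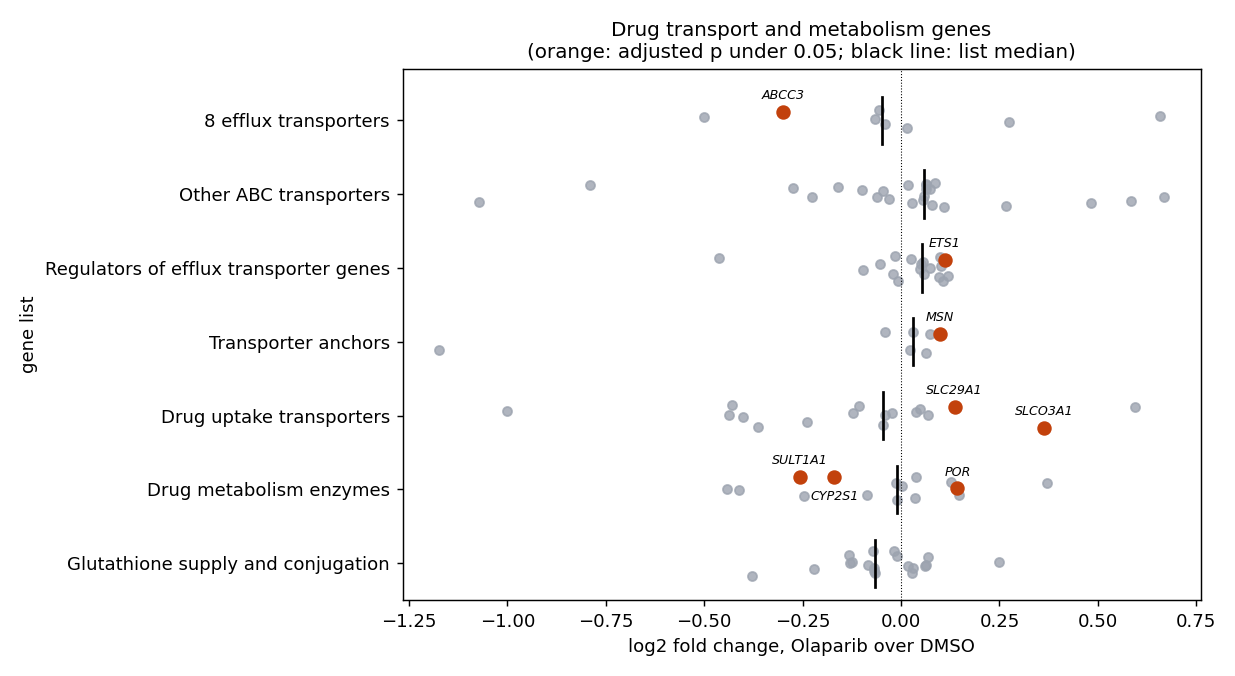
Log2 fold change (Olaparib over DMSO) of every tested gene in 7 lists, 1 point per gene, spread vertically for legibility, with orange points at an adjusted p under 0.05 and a black line at each list's median. ABCC3 is the single called efflux transporter, and the medians of the 7 lists lie between -0.065 and 0.057.

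The genes whose pattern over the 6 samples was most like that of ABCC3 were FAM219B (Pearson r = 0.998), CLSTN3 (r = 0.992) and PRR12 (r = 0.990), among 11996 genes whose counts averaged 100 or more. Of the 3, CLSTN3 was also called lower (log2 fold change -0.23, edgeR adjusted p = 0.00113). For ABCB1, with at most 19 raw reads in any sample, the closest were INIP (r = 0.988) and AAGAB (r = 0.980). Neither of these was called (edgeR adjusted p = 0.600 for INIP and 0.516 for AAGAB). These are descriptions over 6 samples that share 2 treatment groups, and 93 genes exceeded r = 0.95 with ABCC3 and 10 with ABCB1.

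Total counts were 35360458 to 39640775 per sample, and replicates of a group differed by more than sampling noise. The labelled epithelial tumour origin was read from 9 markers, all detected, whose summed level was 482181 to 498753 normalized counts in DMSO and 488835 to 514020 in Olaparib. PAX8, a marker of Müllerian epithelium, was called higher (log2 fold change 0.10, edgeR adjusted p = 0.0399), and missed the threshold when any sample except Olaparib replicate 1 was left out (adjusted p up to 0.206). Of 9 leukocyte, endothelial and fibroblast markers 4 were tested, PECAM1 and LUM were at 0 in all 6 samples, and the summed level was 1666 to 1803 in DMSO and 1658 to 1693 in Olaparib. Most of that sum was the endothelial marker CDH5, at 1607 ± 63.6 normalized counts in DMSO and 1526 ± 28.3 in Olaparib. This was above the epithelial marker CDH1, at 1299 ± 3.69 and 1432 ± 48.9. VWF, an endothelial marker, was called higher, from 41.8 ± 1.96 to 67.4 ± 3.17 normalized counts (log2 fold change 0.68, edgeR adjusted p = 0.0106), and had an adjusted p of 0.0710 in DESeq2. The part of these markers in the fall of ABCC3 was not tested.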

How the data were processed

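RNA was sequenced from 3 Olaparib and 3 DMSO samples of UWB1.289 cells, described as independent replicates. The authors deposited raw read counts per gene. According to the study's methods, the libraries were stranded and made from poly(A) RNA, reads were trimmed with Trimmomatic and mapped to GRCh38 with STAR, PCR duplicates were identified with Picard, and reads were assigned with featureCounts. Whether duplicates were removed, and the strand setting, are not given in the sources used here. Where reads were counted without strand, antisense partners cannot be told apart.

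Genes whose counts summed to more than 10 were kept. Counts were scaled with TMM and Olaparib was compared with DMSO by edgeR 4.0.16's quasi-likelihood test (R 4.3.3), with Benjamini-Hochberg adjustment and no covariate. The alternatives were DESeq2 1.42.0, limma 3.58.1 (voom), 2 other scalings, no filter and filterByExpr, a replicate block, and leaving out each sample. RPKM used the union of GENCODE release 44 exons. That release held 81.9% of the 63677 identifiers. Poisson intervals are exact at 95%. Total counts of 35360458 to 39640775 per sample limit the precision of genes with few reads. The Poisson intervals cover counting error only, and the intervals of fold changes and ratios come from edgeR's test. The code was tested on simulated data.

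The 8 transporters and all gene lists were chosen with earlier results of these data known. Named genes are the 8 transporters, genes of each list with an adjusted p under 0.05, up to 4 genes per list with the most counts, and for ABCB1 and each called transporter the 3 genes with the highest Pearson r of log2 CPM (prior count 2) among genes of mean count 100 or more. Genes outside this rule are said to be named after their values were seen. A few genes that this rule selects are not reported here.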

Additional observations from a re-analysis of the deposited data

How the results depend on the processing

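ABCC3 was called lower in all 13 alternatives tried for the fold changes, with log2 fold changes from -0.33 to -0.26 and adjusted p from 2.7e-10 to 0.00135. The number of called efflux transporters stayed at 1 throughout, leaving out single samples included (1 to 1). The other 7 transporters were called in no alternative, and DESeq2 gave no adjusted p for those with few reads. ABCC10 changed sign, to -0.0050 without DMSO replicate 3 and -2.3e-05 without Olaparib replicate 2 (range 0.042 to -0.0050 over the samples left out). Over all genes the 730 calls became 398 to 870 when single samples were left out, and the related lists held 1 to 6 calls in place of 7. These kept 1 to 4 of the 7, and gained TAP1 and GSTP1 without Olaparib replicate 1 and ABCA7 without Olaparib replicate 2. Deviations of same-numbered samples from their group means correlated at -0.20, 0.26 and -0.32. With 3 samples per group these deviations constrain each other, so the correlations cannot decide whether replicate numbers pair the samples. A replicate block gave 1322 calls over all genes, 13 in the related lists (the same 7 and 6 more, among them ABCA7 and GCLC) and 1 efflux transporter, with adjusted p = 4.7e-06 for ABCC3, and not every sample correlated best with its own number. The order of the 8 levels was the same without length, with plain totals and with the canonical transcript length, the last chosen after seeing the data. The spacing depended on the length. With the canonical length ABCC1 and ABCC5 averaged 18.1 and 16.3 RPKM over the 6 samples, against 13.4 and 8.33 with the exon union. ABCC3 averaged 12.1 against 7.14. Overlap of ranges was read with the exon union only. Why calls in the related lists changed was not tested. Depth limits ABCB1, ABCG2 and ABCC2, whose reads numbered at most 36 in any sample.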
